A study of Mus musculus and Bos taurus with 26 samples.

Results

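The Sox and T-box genes are 2 families of DNA-binding transcription factors. Members were taken by symbol: every Sox or Tbx gene with a number, plus T, Tbr1 and Mga, leaving out Sox2 and Tbx3. That gave 33 of 27988 genes in the mouse values (18 Sox and 15 T-box genes) and 30 of 21577 in the bovine values (17 and 13). Sox3, Tbx22 and T had no bovine counterpart by symbol. The rule uses no measured value, but members were chosen with earlier results of these data known.

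Sox proteins bind DNA through an HMG box, bend it, and sort into subfamilies (B to H) that act in neural, endodermal, vascular, gonadal and skeletal development. T-box proteins bind DNA through the T-box domain and pattern mesoderm, heart, limb and pharynx. Most members of both families are known for roles after gastrulation, whereas Mga, a very large protein that carries a T-box and a second DNA-binding domain, is also a subunit of the repressive Polycomb complex PRC1.6. Histone deacetylases 1 and 2 (Hdac1, Hdac2) are the catalytic subunits of several corepressor complexes and remove acetyl groups from histone tails.

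PolyA RNA was profiled in 22 libraries of mouse 2-cell embryos and 4 libraries of bovine 8/16-cell embryos, 2 libraries in each of 13 groups, around the time when each species activates its genome. Late 2-cell mouse embryos (36 h after fertilization) had been injected as zygotes with mutant or WT Hdac1 mRNA, with mutant or WT Hdac2 mRNA, or with water. Others were treated from the zygote stage with 50 nM FK228, a small molecule also called romidepsin that blocks class I deacetylases, or held in KSOM medium with DMSO. Mutant or WT Hdac1 mRNA was also followed in early 2-cell embryos (24 h). In a further pair, zygotes given mutant Hdac1 mRNA received either Kdm5b mRNA (an H3K4 demethylase) or water in both blastomeres at the early 2-cell stage. Bovine embryos (72 h) were treated with 50 nM FK228 or held in BO-IVC medium with DMSO. The labels do not name the mutations. WT and mutant injection groups all carried an excess of the injected mRNA on top of the embryo's own, and FK228 also reaches deacetylases other than Hdac1 and Hdac2.

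Injected transcripts were seen where the labels place them. Hdac1 stood at 4952 and 4612 FPKM (fragments scaled by transcript length and library size) in late embryos given mutant Hdac1, 2707 and 2960 FPKM in those given WT Hdac1, and 92.2 and 89.3 FPKM after water. In early embryos Hdac1 stood at 4007 and 2952 FPKM after mutant Hdac1 and 7253 and 4519 FPKM after WT Hdac1, so that the order of mutant and WT differed between the stages. In the experiment with Kdm5b, Hdac1 stood at 824.1 and 859.0 FPKM after mutant Hdac1 with Kdm5b and 916.9 and 805.2 FPKM after mutant Hdac1 with water. The late groups given mutant Hdac1 in the 2 experiments thus differed several-fold in its level. Hdac2 stood at 2443 and 2292 FPKM after mutant Hdac2 and 1775 and 1462 FPKM after WT Hdac2. Kdm5b stood at 593.5 and 638.1 FPKM in embryos given it and 61.3 and 74.0 FPKM in their water controls. FPKM do not separate mutant from WT mRNA. The labels do not say that the 2 libraries of a group came from separate cultures, so p-values measure the spread between libraries, which may be technical. No strand step is described, and 8 members share exon bases with another gene (Sox1, Sox4, Sox5, Sox8, Sox15, Sox17, Sox21 and Tbx18). Of 18 oocyte and 2-cell embryo markers, 17 or 18 reached 1 FPKM in both libraries of every mouse group. Replicates correlated at 0.933 to 0.987 across genes, relative depth spanned 0.675 to 1.30 in mouse and 0.913 to 1.07 in cattle, and absolute depth is unknown. In such bulk RNA, fewer cells that express a gene and less RNA per cell cannot be told apart.

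In the late embryos given mutant Hdac1 or Hdac2 once, or FK228, 24 to 27 of the 33 members reached 1 FPKM in a library, and Sox8 or Sox17 was the highest member in each of the 6 libraries. In WT, DMSO and water embryos of that stage, 8 to 15 members reached 1 FPKM, and Mga was the highest in all 8 libraries. The number of all genes at 1 FPKM moved the same way, with 13474 to 14554 in the first 6 libraries and 11284 to 12105 in the 8 control libraries.

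**Figure D1:**
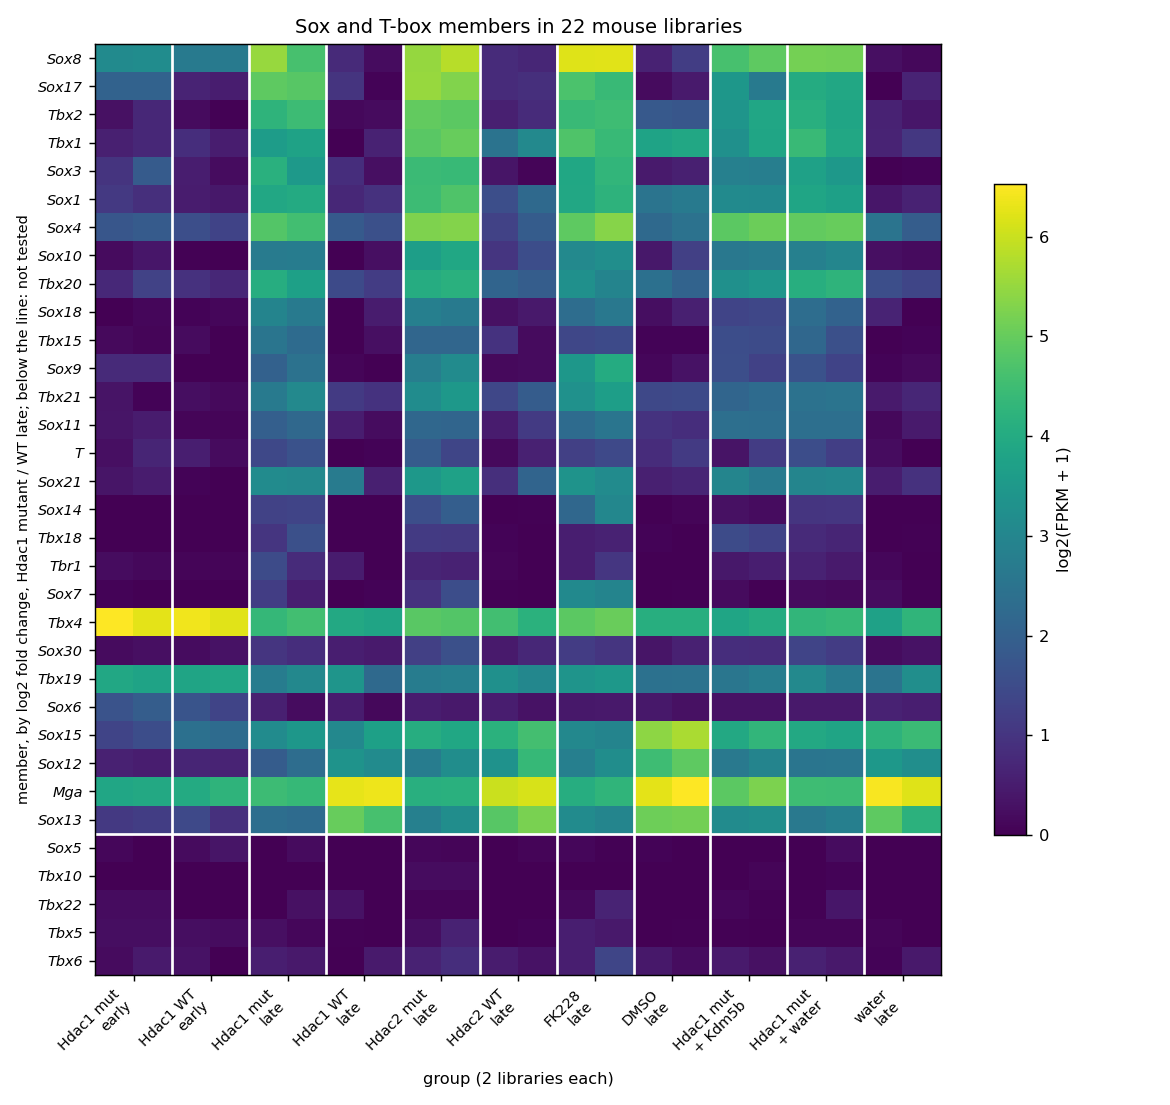
Level of the 33 members (rows, log2(FPKM + 1) as colour) in the 22 mouse libraries (columns, 2 per group). Upper rows are bright in the mutant and FK228 groups at the late stage and dark in their controls, Mga and Sox13 near the lower end of the tested rows show the reverse, and Tbx4 is brightest at the early stage.

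The promoters of 4 members are shown, chosen among those whose RefSeq start matched the GENCODE gene start. Sox8, Tbx1 and Tbx20 had the largest rises after mutant Hdac1 among such members that rose in all 3 late comparisons below. Mga was the one such member that fell in all 3. Sox17 and Tbx2, which rose more than Tbx1 and Tbx20 after mutant Hdac1, had no RefSeq promoter to show. Each line gives the 150 bases before the start on the gene's strand, 5′ to 3′, from RefSeq on GRCm38.p6. Capitals mark GC boxes (GGGCGG on either strand), a short GC-rich motif. The windows lie at chr17:25570687-25570836 (minus strand, Sox8), chr16:18590672-18590821 (minus, Tbx1), chr9:24774304-24774453 (minus, Tbx20) and chr2:119897078-119897227 (plus, Mga).
Sox8: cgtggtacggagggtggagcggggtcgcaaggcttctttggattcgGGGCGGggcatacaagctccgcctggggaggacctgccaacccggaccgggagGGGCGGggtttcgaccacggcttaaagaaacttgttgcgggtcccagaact
Tbx1: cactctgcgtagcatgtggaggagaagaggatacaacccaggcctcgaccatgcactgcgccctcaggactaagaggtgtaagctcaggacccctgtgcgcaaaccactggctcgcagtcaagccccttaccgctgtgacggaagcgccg
Tbx20: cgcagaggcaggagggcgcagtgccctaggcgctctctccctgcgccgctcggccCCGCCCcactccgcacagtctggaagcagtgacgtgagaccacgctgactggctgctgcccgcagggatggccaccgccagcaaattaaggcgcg
Mga: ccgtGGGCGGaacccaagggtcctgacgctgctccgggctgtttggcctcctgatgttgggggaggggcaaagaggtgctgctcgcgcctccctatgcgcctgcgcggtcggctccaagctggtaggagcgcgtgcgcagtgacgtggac
GC boxes numbered 2 in the Sox8 window, 1 each in the Tbx20 and Mga windows and 0 in the Tbx1 window. Another RefSeq start of Tbx1, not shown, had a GC box in the 250 bases before it. Over the 250 bases before the start, RefSeq gave promoters for 24 of the 33 members (32 promoters, since some genes have several starts). A GC box was present in 50.0% of them and in 32.7% of all 32851 promoters, and the median number of CpG dinucleotides was 10 in member promoters and 6 in all. A Sox site (ACAATG, either strand) was found in 12.5% of member promoters and 10.7% of all, and a T-box half-site (AGGTGTGA, either strand) in 0 member promoters and 1.12% of all. A TATA box (TATAAA, either strand) was found in 9.38% of member promoters and 12.4% of all, and the E-box CACGTG, the site of Max dimers including those with Mga, in 3.12% and 6.02%. Such matches describe letters only, and promoters that share a gene are not independent.

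The first question was what mutant Hdac1, mutant Hdac2 and FK228 each did to the families at the late 2-cell stage. The 3 comparisons share no library. Of the 33 members, 28 reached 1 FPKM in at least 2 mouse libraries and were tested with limma across all 17336 such genes; Sox5, Tbx5, Tbx6, Tbx10 and Tbx22 were not. After mutant Hdac1, 21 members rose and 3 fell at an adjusted p under 0.05, where 30.5% of all genes tested rose and 21.6% fell. After mutant Hdac2, 22 rose and 3 fell (30.8% and 22.2% of all genes). Under FK228, 22 rose and 4 fell (31.0% and 26.3%). In all 3, 20 members rose and Mga, Sox12 and Sox13 fell, against 21.1% and 17.4% of all genes tested. Members that are silent in controls passed the filter through the groups where they are high, so the counts over the 33 without a filter are also given: 21 rose and 3 fell after mutant Hdac1 (20.3% and 13.0% of 27988 genes), 24 and 3 after mutant Hdac2 (21.2% and 13.1%), and 22 and 4 under FK228 (22% and 15.8%). The median log2 fold change over the 33 was 1.32, 1.24 and 0.86 in that order, and 0.02, 0.04 and 0.03 over all genes. The direction is described by these counts and was not tested for the families as such.

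**Figure D2:**
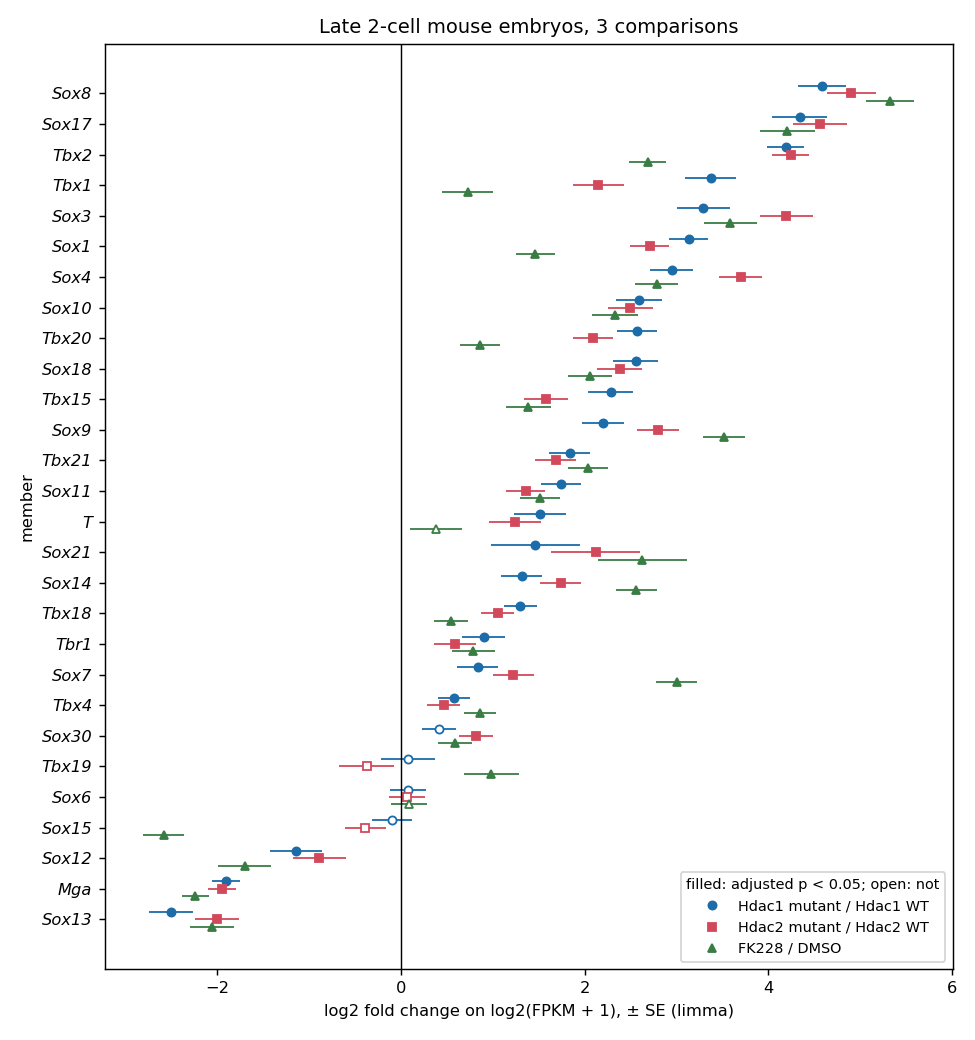
Log2 fold change (± SE, on log2(FPKM + 1)) of the 28 tested members in 3 late 2-cell comparisons, mutant over WT or FK228 over DMSO. Filled symbols passed an adjusted p under 0.05 in limma; 20 members are filled to the right of 0 in all 3 comparisons, and Mga, Sox12 and Sox13 are filled to the left in all 3.

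Sox8, a SoxE factor of the testis and neural crest that lies at chr17:25565892-25570686 (GRCm38, minus strand) and shares exon bases with the antisense gene 2810468N07Rik, showed the largest rise after mutant Hdac1. It stood at 45.1 and 23.8 FPKM after mutant Hdac1 and 0.71 and 0.16 FPKM after WT Hdac1. After mutant Hdac2 it stood at 44 and 56 FPKM, and after WT Hdac2 at 0.75 and 0.64 FPKM. Under FK228 it stood at 73.1 and 74.7 FPKM, and under DMSO at 0.54 and 1.27 FPKM. No mutant or FK228 library came near any control library, and the log2 fold changes were 4.59 ± 0.26, 4.90 ± 0.26 and 5.32 ± 0.26 (SE, adjusted p = 5.35e-09, 2.31e-09 and 7.66e-10).

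The other SoxE genes did the same at lower levels. Sox9, needed for testis and cartilage, stood at 3.09 and 4.55 FPKM after mutant Hdac1 and 0.07 and 0 FPKM after WT Hdac1, and at 9.91 and 15.1 FPKM under FK228 and 0.08 and 0.24 FPKM under DMSO. After mutant Hdac2 its values were 5.98 and 7.85 FPKM, against 0.12 and 0.15 FPKM after WT Hdac2. Every treated library lay above every control library. Its log2 fold changes were 2.20 ± 0.23, 2.80 ± 0.23 (mutant Hdac2) and 3.52 ± 0.23. Sox10, a neural crest and glial factor, rose by 2.59, 2.50 and 2.33 on the log2 scale after mutant Hdac1, mutant Hdac2 and FK228 (adjusted p = 4.85e-07, 6.01e-07 and 9.51e-07). It stood at 5.53 and 5.68 FPKM after mutant Hdac1 and 0 and 0.20 FPKM after WT Hdac1. The values were 11.7 and 13.8 FPKM after mutant Hdac2 and 1.02 and 1.93 FPKM after WT Hdac2, and 7.36 and 8.44 FPKM under FK228 and 0.33 and 1.35 FPKM under DMSO.

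Among the SoxF genes, which act in endoderm and blood vessels, Sox17 moved most. It stood at 28.9 and 27.4 FPKM after mutant Hdac1 and 0.99 and 0.04 FPKM after WT Hdac1. After mutant Hdac2 the values were 44.97 and 37.9 FPKM, against 0.74 and 0.85 FPKM after WT Hdac2; under FK228 they were 24.6 and 20.4 FPKM, against 0.15 and 0.40 FPKM under DMSO. The log2 fold changes were 4.34 ± 0.30, 4.56 ± 0.30 and 4.21 ± 0.30 (adjusted p = 2.13e-08, 1.07e-08 and 1.29e-08), so that the 3 rises lay within their errors of one another. Sox18, which acts in vessel and lymphatic endothelium, rose by 2.55, 2.38 and 2.06 in the 3 comparisons. It stood at 6.71 and 5.30 FPKM after mutant Hdac1 and 0 and 0.41 FPKM after WT Hdac1, at 6.06 and 5.43 FPKM after mutant Hdac2 and 0.22 and 0.37 FPKM after WT Hdac2, and at 4.03 and 5.12 FPKM under FK228 and 0.18 and 0.50 FPKM under DMSO, with no overlap. Sox7 was low after the mutants and high under FK228: 1.26 and 0.47 FPKM after mutant Hdac1, 0.90 and 1.94 FPKM after mutant Hdac2, and 7.51 and 6.68 FPKM under FK228, with no control library above 0.047 FPKM in those 3 comparisons. In the experiment with Kdm5b, Sox7 stood at 0.14 and 0.12 FPKM after mutant Hdac1 with water. Water alone gave 0.16 and 0.02 FPKM, overlapping values. The Sox7 call after mutant Hdac1 (adjusted p = 0.00487) was lost without the first mutant library, where the log2 fold change was 0.53. It was also lost under quantile normalization (adjusted p = 0.284) and with only the groups compared (adjusted p = 0.0885).

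SoxB1 genes keep neural progenitors undifferentiated. Sox3 stood at 16.9 and 10.7 FPKM after mutant Hdac1 and 0.82 and 0.20 FPKM after WT Hdac1, a log2 fold change of 3.29 ± 0.29 (adjusted p = 2.28e-07). It rose by 4.20 ± 0.29 after mutant Hdac2 and by 3.59 ± 0.29 under FK228. Its values there were 20.9 and 20.2 FPKM after mutant Hdac2 and 0.29 and 0.07 FPKM after WT Hdac2, and 13.9 and 18.9 FPKM under FK228 and 0.38 and 0.48 FPKM under DMSO, so that Sox3 was below 1 FPKM in each control library of the 3 comparisons. Sox1 rose by 3.13, 2.71 and 1.46, with controls that already differed: 0.66 and 0.91 FPKM after WT Hdac1, 1.96 and 3.69 FPKM after WT Hdac2, and 4.72 and 5.43 FPKM under DMSO. Treated levels of Sox1 were 14.2 and 15.1 FPKM after mutant Hdac1, 21.3 and 25.7 FPKM after mutant Hdac2 and 14.1 and 17.6 FPKM under FK228. Those of mutant Hdac1 and FK228 overlapped, and those of mutant Hdac2 lay above both. Sox2, the SoxB1 gene outside the list, stood at 24.2 and 29.7 FPKM after mutant Hdac1 and 2.55 and 5.75 FPKM after WT Hdac1, and also rose in all 3 comparisons (2.51, 1.81 and 1.39). Of the SoxB2 genes, which counteract SoxB1 in neural differentiation, Sox14 stood at 1.45 and 1.54 FPKM after mutant Hdac1, was listed at 0 in both WT libraries, and reached 3.57 and 7.16 FPKM under FK228, against 0 and 0.07 FPKM under DMSO. After mutant Hdac2 it had 1.98 and 2.88 FPKM and after WT Hdac2 0 and 0.03 FPKM, the same order at low levels. Sox21 stood at 7.94 and 7.41 FPKM after mutant Hdac1, and its WT libraries lay far apart at 5.58 and 0.50 FPKM. The Sox21 log2 fold change of 1.46 ± 0.48 (adjusted p = 0.0188) was 0.40 without the second WT library (adjusted p = 0.395), and the call was also lost without either mutant library (adjusted p = 0.0716 and 0.0554). The other Sox21 comparisons had no overlap, with 10.1 and 12.4 FPKM after mutant Hdac2 and 0.84 and 3.28 FPKM after WT Hdac2, and 9.23 and 7.88 FPKM under FK228 and 0.49 and 0.60 FPKM under DMSO.

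The SoxC genes split. Sox4, which acts in progenitors of many tissues, stood at 26.7 and 22.5 FPKM after mutant Hdac1 and 2.60 and 2.04 FPKM after WT Hdac1 (log2 fold change 2.95 ± 0.23, adjusted p = 8.12e-08), and rose by 3.70 and 2.79 after mutant Hdac2 and FK228. The values were 37.4 and 38.8 FPKM after mutant Hdac2 and 1.42 and 2.74 FPKM after WT Hdac2, and 29.0 and 39.6 FPKM under FK228 and 3.68 and 4.47 FPKM under DMSO, with no overlap. Sox11, a SoxC factor of neurons, rose by 1.74, 1.36 and 1.52 from low levels. It stood at 2.96 and 3.66 FPKM after mutant Hdac1 and 0.43 and 0.15 FPKM after WT Hdac1, at 3.55 and 3.42 FPKM after mutant Hdac2 and 0.41 and 1.16 FPKM after WT Hdac2, and at 3.89 and 4.79 FPKM under FK228 and 0.92 and 0.80 FPKM under DMSO. Sox12 fell: it stood at 2.72 and 4.06 FPKM after mutant Hdac1 and 9.30 and 7.87 FPKM after WT Hdac1 (−1.14 ± 0.29, adjusted p = 0.00353), and at 6.09 and 8.24 FPKM under FK228 and 21.9 and 29.2 FPKM under DMSO (−1.70 ± 0.29). After mutant Hdac2 Sox12 stood at 5.73 and 8.15 FPKM and after WT Hdac2 at 9.10 and 19.8 FPKM, so that the WT libraries lay far apart. The Sox12 call there (adjusted p = 0.0168) was lost without the first mutant library (adjusted p = 0.142) and without the second WT library, where the log2 fold change was −0.36 (adjusted p = 0.315).

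Sox13, a SoxD factor of T cells and cartilage, fell in all 3 comparisons. It stood at 4.10 and 3.91 FPKM after mutant Hdac1 and 31.4 and 23.7 FPKM after WT Hdac1, at 6.21 and 8.2 FPKM after mutant Hdac2 and 27.5 and 36.0 FPKM after WT Hdac2, and at 7.89 and 6.79 FPKM under FK228 and 32.9 and 34.3 FPKM under DMSO. The groups were far apart, with log2 fold changes of −2.50 ± 0.24, −2.00 ± 0.24 and −2.06 ± 0.24 (adjusted p = 4.90e-07, 4.12e-06 and 2.46e-06). The other SoxD genes were near silent at this stage: no late library had more than 0.552 FPKM of Sox6 or 0.159 FPKM of Sox5.

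Sox15, the SoxG gene, differed among treatments. Under FK228 it fell to 7.24 and 6.67 FPKM, against 42.1 and 51.5 FPKM under DMSO (−2.58 ± 0.22, adjusted p = 9.50e-08). After mutant Hdac1 it stood at 7.83 and 9.89 FPKM, against 7.29 and 12.2 FPKM after WT Hdac1 (−0.09 ± 0.22, adjusted p = 0.757), and after mutant Hdac2 at 15.9 and 13.9 FPKM, against 16.9 and 23.0 FPKM (−0.39 ± 0.22, adjusted p = 0.16). Late embryos given water stood at 17.7 and 20.9 FPKM, above the mutant and WT Hdac1 libraries just given. The flat contrast after mutant Hdac1 thus has a WT reference that itself lay below water. DMSO libraries were the highest of all 22 for this gene. Sox30, a SoxH factor of spermatids, was called higher after mutant Hdac2 and FK228 but had no more than 2.03 FPKM in any library; the FK228 call was lost without the first FK228 or the first DMSO library (adjusted p = 0.0752 and 0.102).

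Among T-box genes, Tbx2, a repressor of the heart and limb programmes, moved most. It stood at 18.1 and 21.2 FPKM after mutant Hdac1 and 0.11 and 0.15 FPKM after WT Hdac1, at 30.4 and 28.6 FPKM after mutant Hdac2 and 0.50 and 0.73 FPKM after WT Hdac2, and at 20.7 and 21.7 FPKM under FK228 and 2.52 and 2.37 FPKM under DMSO. The log2 fold changes were 4.19 ± 0.20, 4.24 ± 0.20 and 2.69 ± 0.20 (adjusted p = 1.63e-09, 1.14e-09 and 2.45e-08). The libraries of mutant Hdac1 and FK228 overlapped, and both mutant Hdac2 libraries lay above them. Among the controls, the DMSO libraries lay above all WT libraries.

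Tbx4, a hindlimb and lung factor whose gene starts 44473 bases beyond the end of Tbx2 on chromosome 11, was already on in every control. It stood at 28.4 and 31.9 FPKM under FK228 and 16.1 and 16.1 FPKM under DMSO (0.86 ± 0.18, adjusted p = 0.000564). It stood at 19.4 and 22.6 FPKM after mutant Hdac1 and 14.3 and 13.1 FPKM after WT Hdac1 (0.58 ± 0.18, adjusted p = 0.0119), and at 28.2 and 26.7 FPKM after mutant Hdac2 and 22.6 and 17.0 FPKM after WT Hdac2 (0.47 ± 0.18, adjusted p = 0.0358), with no overlap in either. After mutant Hdac1 the call was lost with little change in the log2 fold change, which was 0.47 without the second mutant library and 0.52 without the second WT library (adjusted p = 0.0861 and 0.0654). After mutant Hdac2 the call was lost without the first mutant, second mutant or second WT library, with log2 fold changes of 0.43, 0.50 and 0.27 (adjusted p = 0.135, 0.0835 and 0.308).

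The Tbx1 subfamily gave 4 rising genes in each comparison. Tbx1, of the pharyngeal arches and outflow tract, stood at 11.3 and 12.6 FPKM after mutant Hdac1 and 0 and 0.55 FPKM after WT Hdac1 (3.37 ± 0.28, adjusted p = 1.07e-07). After mutant Hdac2 it stood at 27.8 and 31.2 FPKM and after WT Hdac2 at 4.63 and 7.37 FPKM (2.15 ± 0.28). Under FK228 it stood at 25.6 and 20.1 FPKM and under DMSO at 12.7 and 14.0 FPKM, so that control levels differed widely; the rise of 0.73 ± 0.28 (adjusted p = 0.0342) was lost without the first FK228 library (adjusted p = 0.195) and without either DMSO library (adjusted p = 0.134 and 0.0751). Tbx20, a cardiac factor, stood at 15.8 and 12.1 FPKM after mutant Hdac1 and 1.77 and 1.24 FPKM after WT Hdac1, and rose by 2.57, 2.09 and 0.86 in the 3 comparisons. The other Tbx20 values were 15.5 and 16.8 FPKM after mutant Hdac2 and 3.27 and 2.78 FPKM after WT Hdac2, and 8.66 and 6.75 FPKM under FK228 and 4.34 and 3.26 FPKM under DMSO. FK228 libraries thus lay below those of both mutants for Tbx20. Tbx15, of skin and muscle, rose by 2.28, 1.58 and 1.39. It stood at 4.83 and 3.85 FPKM after mutant Hdac1 and 0 and 0.20 FPKM after WT Hdac1, at 3.45 and 3.48 FPKM after mutant Hdac2 and 0.94 and 0.15 FPKM after WT Hdac2, and at 1.65 and 1.79 FPKM under FK228 and 0.04 and 0.04 FPKM under DMSO, with no overlap. Tbx18, of the sinus node and ureter, stood at 1.02 and 2.01 FPKM after mutant Hdac1 and was listed at 0 in both WT libraries. Under FK228 Tbx18 had 0.47 and 0.53 FPKM and under DMSO 0.04 and 0.01 FPKM, a call lost without the second FK228 library or either DMSO library (adjusted p = 0.0727, 0.0571 and 0.0745).

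Tbx21 (T-bet), which directs T helper 1 cells, stood at 5.42 and 7.37 FPKM after mutant Hdac1 and 1.15 and 0.96 FPKM after WT Hdac1, and rose by 1.84, 1.69 and 2.04 in the 3 comparisons. The other Tbx21 values were 7.98 and 10.1 FPKM after mutant Hdac2 and 1.6 and 2.72 FPKM after WT Hdac2, and 8.88 and 11.6 FPKM under FK228 and 1.66 and 1.79 FPKM under DMSO, with no overlap. Tbr1, a factor of cortical neurons, was called higher in each but had no more than 1.83 FPKM in any library, was listed at 0 in both DMSO libraries, and lost every one of those calls on leaving out single libraries (adjusted p up to 0.145 after mutant Hdac2, without the second WT library). Eomes, the relative of both that is outside the list, stood at 22.1 and 22.7 FPKM after mutant Hdac1 and 1.30 and 0.67 FPKM after WT Hdac1, and rose by 3.58, 3.75 and 2.61. T (brachyury), the mesoderm and notochord gene that names the family, rose by 1.51 and 1.24 after the mutants, with levels of 1.56 to 2.70 FPKM in the mutant libraries and at most 0.503 FPKM in the WT libraries. Under FK228 T stood at 1.38 and 1.72 FPKM and under DMSO at 0.77 and 1.16 FPKM (0.38 ± 0.28, adjusted p = 0.265). Tbx19, of pituitary corticotrophs, passed only under FK228, at 9.43 and 10.2 FPKM against 4.41 and 4.54 FPKM under DMSO (0.98 ± 0.30, adjusted p = 0.010, and 0.0532 without the second FK228 library). Tbx3, of the Tbx2 subfamily and outside the list, fell under FK228 only among these calls, at 27.4 and 28.5 FPKM against 50.5 and 49.8 FPKM under DMSO.

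Mga fell in all 3 comparisons and lost its place as the most abundant member. It stood at 21.3 and 19.8 FPKM after mutant Hdac1 and 76.8 and 81.8 FPKM after WT Hdac1. It stood at 16.5 and 16.6 FPKM after mutant Hdac2 and 63.1 and 69.9 FPKM after WT Hdac2, and at 15.7 and 18.3 FPKM under FK228 and 76.3 and 91.3 FPKM under DMSO. Every treated library lay far below every control library. The log2 fold changes were −1.90 ± 0.15, −1.94 ± 0.15 and −2.23 ± 0.15 (adjusted p = 8.03e-08, 5.34e-08 and 8.45e-09).

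Genes of 13 PRC1.6 partners of Mga did not move as a block. After mutant Hdac1 5 fell and 1 rose, after mutant Hdac2 5 fell and 1 rose, and under FK228 5 fell and 2 rose. Of all genes tested, 21.6%, 22.2% and 26.3% fell and 30.5%, 30.8% and 31.0% rose in that order. Pcgf6, the ring-finger subunit that defines the complex, stood at a mean of 14.0 FPKM after mutant Hdac1 and 69.8 FPKM after WT Hdac1 (−2.24), and L3mbtl2 (−1.93), Cbx3 (−2.48) and Rybp (−0.57) also fell there. E2f6 rose by 1.27, and Max, the dimer partner of Mga, had a log2 fold change of 0.27 that did not pass. The median over the 13 was −0.27, −0.34 and −0.50 in the 3 comparisons, beside 0.17, 0.14 and 0.15 over all genes tested.

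Genes of the tissues where Sox and T-box factors work were listed as well. The counts stand beside 30.5%, 30.8% and 31.0% of all genes higher and 21.6%, 22.2% and 26.3% lower after mutant Hdac1, mutant Hdac2 and FK228. Genes near 0 in the controls passed the filter on low values only through groups where they were high. Of 23 tested mesoderm and endoderm genes, 16, 18 and 19 rose after mutant Hdac1, mutant Hdac2 and FK228, and 1, 2 and 1 fell (medians 1.31, 1.72 and 1.18). Lhx1 (4.03), Dll1 (3.89), Hand1 (3.48) and Foxa2 (2.75) were among those that rose after mutant Hdac1, and Gata4 fell (−1.86). With no filter the table held 27 of these genes, of which 16, 18 and 19 were called higher and 1, 2 and 1 lower. Of 20 tested neural and neural crest genes, 17, 15 and 16 rose and 0, 1 and 2 fell (medians 2.28, 2.10 and 1.96), with Msx1 (4.67), Pax6 (4.06), Olig2 (3.77) and Foxd3 (3.75) high among them after mutant Hdac1. With no filter 18, 17 and 16 of 22 were called higher and 0, 1 and 2 lower, against 20.3%, 21.2% and 22% of all genes higher and 13.0%, 13.1% and 15.8% lower. Genes of 17 other HMG-box proteins moved both ways: 7, 8 and 6 rose and 6, 6 and 7 fell. In that list the Wnt effectors Lef1 (1.41), Tcf7 (1.26), Tcf7l1 (2.16) and Tcf7l2 (1.36) rose after mutant Hdac1, and Ubtf (−1.82), Hmgb2 (−1.82) and Hmgb3 (−1.31) fell. Of 6 tested Groucho corepressors (Tle family), which several Sox and T-box proteins recruit, 2, 1 and 0 rose and 0, 1 and 2 fell.

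Blood markers moved with the members in part. The summed level of the 11 in the mouse values was 119.2 to 129.9 FPKM after mutant Hdac1 and 4.72 to 5.98 FPKM after WT Hdac1. It was 183.2 to 183.3 FPKM after mutant Hdac2 and 6.60 to 9.003 FPKM after WT Hdac2. Under FK228 it was 198.7 to 216.0 FPKM, and under DMSO 11.2 to 18.3 FPKM. Of the 11, 7 passed the level filter, and 7, 6 and 5 rose, where 30.5%, 30.8% and 31.0% of all genes tested rose. Markers near 0 in controls, such as Spi1 (0.56 and 0.44 FPKM after WT Hdac1), passed through the groups where they were high. No count without the filter was made for these markers. The alpha globin Hba-a1 led, at 51.2 and 32.8 FPKM after mutant Hdac1 and 3.95 and 1.03 FPKM after WT Hdac1. The beta globins Hbb-bs and Hbb-bt were listed at 0 in every library but 1 (0.241 and 0.332 FPKM in the second FK228 library), and the leukocyte antigen Ptprc did not exceed 0.394 FPKM. Summed cumulus and granulosa markers were 30.4 to 41.8 FPKM after mutant Hdac1 and 116.9 to 118.6 FPKM after WT Hdac1, with Fshr and Hsd3b1 at 0 in both groups. Most of that sum was Nr5a2 and Amhr2. Nr5a2 stood at 16.0 and 21.2 FPKM after mutant Hdac1 and 75.6 and 68.2 FPKM after WT Hdac1. Amhr2 stood at 6.63 and 8.59 FPKM and at 40.8 and 48.7 FPKM. Of 10 tested markers, 3, 3 and 1 rose and 2, 2 and 2 fell in the 3 comparisons. Among all genes tested 21.6%, 22.2% and 26.3% fell. The part of the blood, cumulus and granulosa markers in the result was not tested.

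The next question was whether the 3 treatments differed in size of effect. For mutant Hdac1 minus mutant Hdac2, limma called 0 members (0.0404% of all genes higher, 0.0635% lower), and 3 had an unadjusted p under 0.05: Tbx1 (1.22 ± 0.39), Sox3 (−0.90 ± 0.41) and Sox4 (−0.75 ± 0.33). The lowest adjusted p was 0.297, which does not show that the mutants act alike. For mutant Hdac1 minus FK228, 5 members were higher and 3 lower (4.76% and 2.20% of all genes). Tbx1 (2.65 ± 0.39, adjusted p = 0.00240), Sox15 (2.49 ± 0.31), Tbx20 (1.72 ± 0.31), Sox1 (1.67 ± 0.30) and Tbx2 (1.503 ± 0.29) had the more positive change after mutant Hdac1. Sox7 (−2.16 ± 0.31, adjusted p = 0.00208), Sox9 (−1.32 ± 0.32) and Sox14 (−1.25 ± 0.31) had the more positive change under FK228. The Sox14 and Sox9 differences were lost without the second FK228 library (adjusted p = 0.0973 and 0.108) and several others. All 8 missed the threshold when only the 4 groups involved were fitted. For Tbx1, Tbx2, Sox1, Tbx20 and Sox15, DMSO libraries lay above those of WT Hdac1. The treated libraries of mutant Hdac1 and FK228 overlapped for Tbx2 and Sox1; injection and culture treatment cannot be told apart from this.

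**Figure D3:**
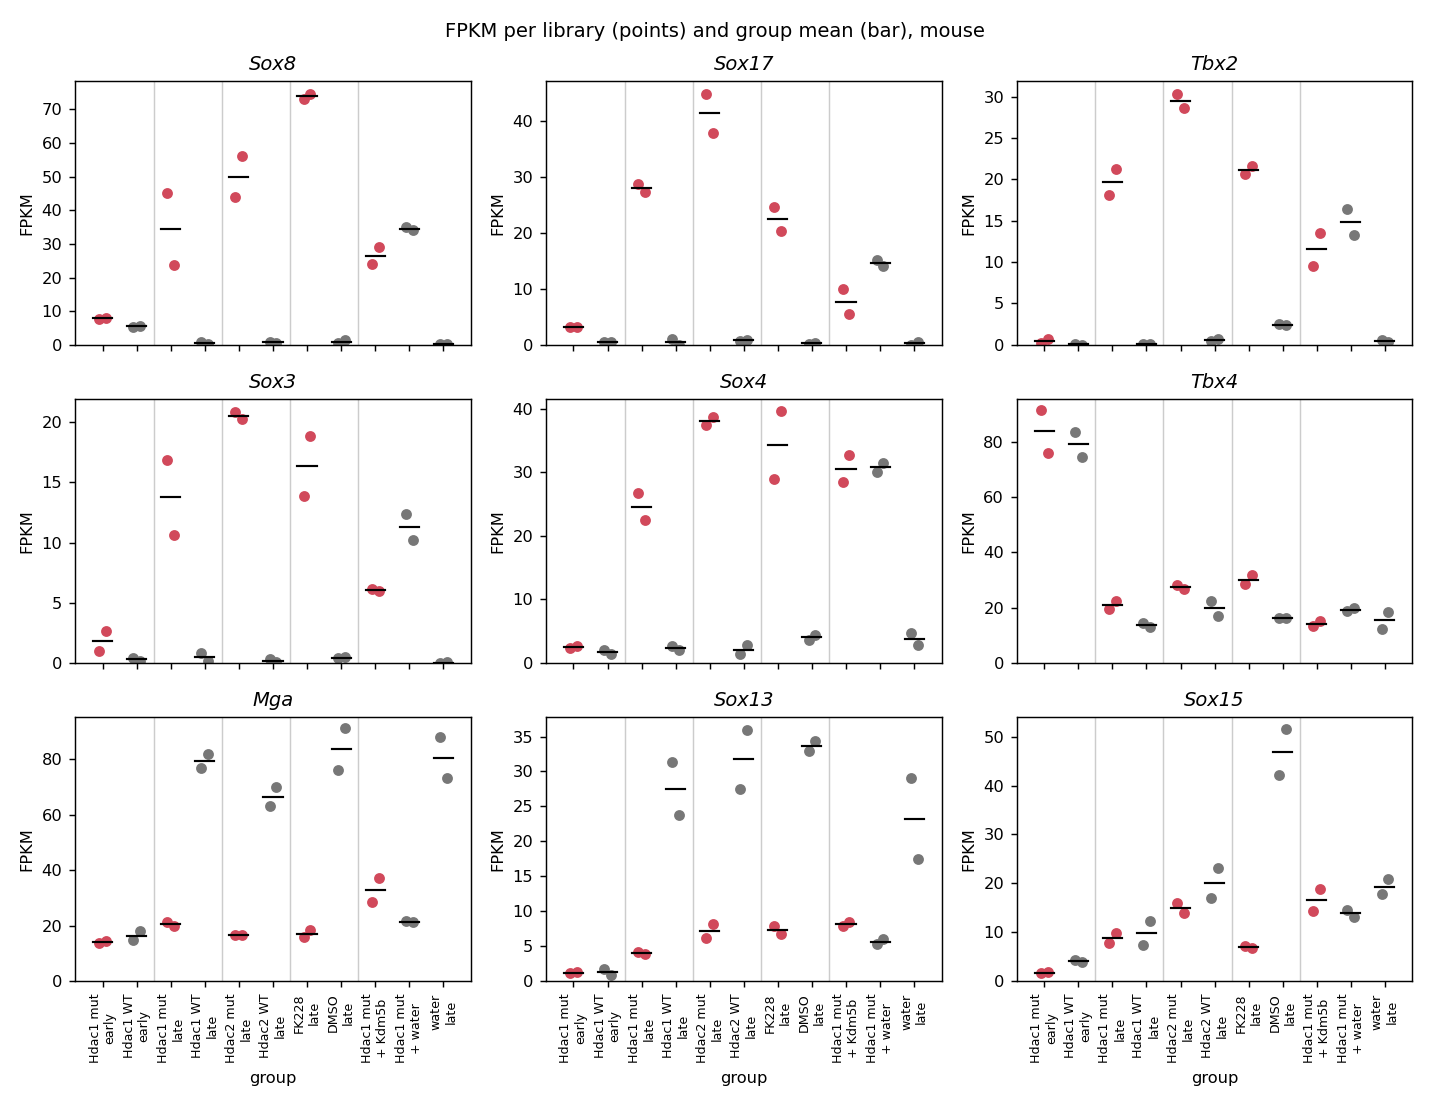
FPKM of 9 members in each mouse library (points) with group means (bars). Red marks the mutant, FK228 and Kdm5b groups and grey the groups each is set against; Sox8, Sox17, Tbx2, Sox3 and Sox4 are high in the red late groups, Mga and Sox13 in the grey ones, Tbx4 at the early stage and Sox15 under DMSO.

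The early 2-cell stage asks when the effect arises. At 24 h, 1 member was called after mutant Hdac1 (0.231% of all genes higher, 0.329% lower). Sox17 stood at 3.16 and 3.14 FPKM after mutant Hdac1 and 0.56 and 0.43 FPKM after WT Hdac1 (1.47 ± 0.30, adjusted p = 0.0364). The 4 values did not overlap, but the call was lost on leaving out any 1 of the 4 libraries (adjusted p = 0.145 to 0.281), with log2 fold changes of 1.41 to 1.54. Sox3 stood at 0.99 and 2.68 FPKM after mutant Hdac1 and 0.43 and 0.17 FPKM after WT Hdac1. Sox15 stood at 1.55 and 1.90 FPKM, against 4.30 and 3.91 FPKM. Their unadjusted limma p-values were 0.00236 and 0.000934, and neither passed adjustment here. With a pseudocount of 0.1, Sox15 and Sox9 passed and Sox17 did not (adjusted p = 0.185). Sox9 stood at 0.715 and 0.712 FPKM after mutant Hdac1 and 0.017 and 0 FPKM after WT Hdac1. The effect of mutant Hdac1 at the late stage exceeded that at the early stage for 17 members (21.2% of all genes tested). It was more negative for 2, Mga and Sox13 (15.2%). The largest of these differences were those of Sox8 (4.13 ± 0.37), Tbx2 (3.79 ± 0.29), Tbx1 (3.41 ± 0.39) and Sox17 (2.87 ± 0.42). The calls for Sox9, Sox11, Sox14 and T were lost under quantile normalization. Some members, such as Sox14 (0 in every early library), passed the filter through late groups where they are high. Over the 33 without a filter, 17 were higher and 2 lower. The median difference was 1.29, and 0.04 over all genes. No share of all genes called without the filter was made for this difference.

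Between 24 and 36 h in embryos given WT Hdac1, 6 members rose and 4 fell (28.8% and 28.1% of all genes); this comparison shares its late WT libraries with that of mutant Hdac1. Sox13 stood at 31.4 and 23.7 FPKM at 36 h and 1.74 and 0.86 FPKM at 24 h (3.65 ± 0.24, adjusted p = 3.08e-09). Mga stood at 76.8 and 81.8 FPKM at 36 h and 14.8 and 17.9 FPKM at 24 h (2.22 ± 0.15), and Sox12 at 9.30 and 7.87 FPKM and 0.61 and 0.56 FPKM (2.59 ± 0.29). In mutant Hdac1 embryos at 36 h, Mga stood at 21.3 and 19.8 FPKM and Sox13 at 4.10 and 3.91 FPKM. Sox15 (1.04) and Tbx21 (0.85) also rose, as did Sox21, whose call rested on the first late library (adjusted p = 0.00903, and 0.220 without it).

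Tbx4 was the leading member at 24 h and fell to 14.3 and 13.1 FPKM at 36 h, against 83.7 and 74.6 FPKM at 24 h (−2.45 ± 0.18, adjusted p = 8.47e-09). Sox8 fell as well, to 0.71 and 0.16 FPKM at 36 h, against 5.41 and 5.49 FPKM at 24 h (−2.20 ± 0.26), and stood at 7.68 and 8.00 FPKM in mutant embryos at 24 h. Sox6 fell (−1.20). The Tbx19 call (−1.02, adjusted p = 0.00792) was lost without the second late library (adjusted p = 0.183). In mutant embryos Tbx4 stood at 19.4 and 22.6 FPKM at 36 h and at 91.6 and 76.2 FPKM at 24 h.

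Extra WT Hdac1 was compared with water at the late stage. Sox15 was the 1 member called, at 7.29 and 12.2 FPKM after WT Hdac1 and 17.7 and 20.9 FPKM after water (−0.95 ± 0.22, adjusted p = 0.0367), where 0.352% of all genes rose and 1.83% fell. The call was lost without the first WT library (adjusted p = 0.241), the first water library (0.0717) or the second water library (0.133). Without the second WT library Sox21 was called too.

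Kdm5b mRNA was given to embryos that already carried mutant Hdac1. limma called 0 members (0.415% of all genes rose, 0.629% fell), and 12 had an unadjusted p under 0.05, 2 higher and 10 lower. Tbx20 stood at 8.72 and 9.79 FPKM with Kdm5b and 16.1 and 18.1 FPKM with water (−0.82 ± 0.22, adjusted p = 0.0836), and at 1.95 and 1.56 FPKM in embryos given water alone. Sox17 stood at 9.96 and 5.497 FPKM with Kdm5b, 15.3 and 14.1 FPKM with water (−0.89 ± 0.30, adjusted p = 0.159), and 0 and 0.58 FPKM with water alone. Mga stood at 28.5 and 37.1 FPKM with Kdm5b, 21.6 and 21.3 FPKM with water (0.58 ± 0.15, adjusted p = 0.0799), and 88.0 and 73.1 FPKM with water alone. In these 3 genes the Kdm5b libraries lay between both water groups. Embryos given water alone were injected as zygotes, and those of the pair also in the blastomeres. Over all 33 members, 17 were lower without overlap with Kdm5b than with water and 4 higher, where 21.1% and 16.4% of all 27988 genes were. Sox4 stood at 28.5 and 32.7 FPKM with Kdm5b and 30.1 and 31.5 FPKM with water, overlapping values (−0.01 ± 0.23, adjusted p = 0.999). Tbx18 was the one member that passed under any other setting (limma adjusted p = 0.0823 here). It stood at 1.83 and 1.485 FPKM with Kdm5b and 0.70 and 0.59 FPKM with water. With water alone it had 0 and 0.03 FPKM, so that its Kdm5b libraries lay above both water groups.

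In bovine 8/16-cell embryos, 21 of 30 members were tested among 12590 genes; SOX6, SOX7, SOX9, SOX10, SOX18, TBX1, TBX10, TBX19 and TBX21 did not reach the level filter. Under FK228, 7 rose and 5 fell, where 22.2% of all genes rose and 27.4% fell. Over the 30 without a filter, 6 rose and 3 fell (11% and 13.8% of all genes). The median log2 fold change over the 30 was 0.19 and that over all genes 0.04.

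SOX8 stood at 4.07 and 3.13 FPKM under FK228 and 0.22 and 0.06 FPKM under DMSO (2.01 ± 0.22, adjusted p = 0.000195). TBX2 stood at 3.64 and 3.24 FPKM under FK228 and 0.02 and 0.26 FPKM under DMSO (1.97 ± 0.21). SOX11 stood at 27.4 and 24.1 FPKM under FK228 and 6.90 and 6.62 FPKM under DMSO (1.78 ± 0.18, adjusted p = 0.000166). TBX18 stood at 5.87 and 5.09 FPKM under FK228 and 2.18 and 2.35 FPKM under DMSO (0.99 ± 0.21). The groups were separate for each of these 4 genes. TBR1 rose by 1.07. SOX17 (0.72, adjusted p = 0.0240) lost its call without the first FK228 library, the first DMSO library or the second DMSO library (adjusted p = 0.118, 0.0867 and 0.0703). TBX4 (0.69, adjusted p = 0.0456) lost it without either FK228 library or the first DMSO library (adjusted p = 0.0547, 0.172 and 0.246).

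MGA fell in cattle as it did in mouse, to 6.23 and 4.23 FPKM under FK228, against 24.2 and 18.6 FPKM under DMSO (−1.85 ± 0.24, adjusted p = 0.000426). SOX15 stood at 20.5 and 16.9 FPKM under FK228 and 36.2 and 34.9 FPKM under DMSO (−0.90 ± 0.18, adjusted p = 0.00363). TBX5, a forelimb and heart factor, stood at 3.0 and 2.65 FPKM under FK228 and 5.77 and 6.87 FPKM under DMSO (−0.93 ± 0.21, adjusted p = 0.00725, and 0.0516 without the second FK228 library). SOX13, at 12.1 and 13.2 FPKM under FK228 and 16.7 and 21.3 FPKM under DMSO, had adjusted p = 0.0467, and lost its call whichever 1 of the 4 libraries was left out (adjusted p = 0.0518 to 0.230).

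SOX14 stood at 0.53 and 0 FPKM under FK228 and 1.79 and 1.23 FPKM under DMSO. Its call (adjusted p = 0.0114) was lost without the second FK228 library or the first DMSO library (adjusted p = 0.0711 and 0.0605). SOX4, among the highest members in both groups, had a log2 fold change of 0.03 ± 0.19 (adjusted p = 0.901). Of the 18 members tested in both species, 7 rose in both under FK228 (Sox8, Sox11, Sox17, Tbr1, Tbx2, Tbx4 and Tbx18), 3 fell in both (Mga, Sox13 and Sox15) and 1, Sox14, rose in mouse and fell in cattle. The other 7 were called in mouse but not in cattle, Sox1, Sox4, Sox21, Sox30, Tbx15 and Tbx20 higher and Sox12 lower. Among 9850 genes tested in both and matched by symbol, 10.4% rose in both, 15.6% fell in both and 5.08% rose in mouse and fell in cattle, while 14.6% rose and 15.4% fell in mouse alone. The species were not tested against each other. Bovine T is named TBXT in these values and so fell outside the choice by symbol; it stood at 3.41 and 3.65 FPKM under FK228 and 0.34 and 0.42 FPKM under DMSO (1.71 ± 0.20, adjusted p = 0.000291). EOMES stood at 82.4 and 77.1 FPKM under FK228 and 29.5 and 22.7 FPKM under DMSO.

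**Figure D4:**
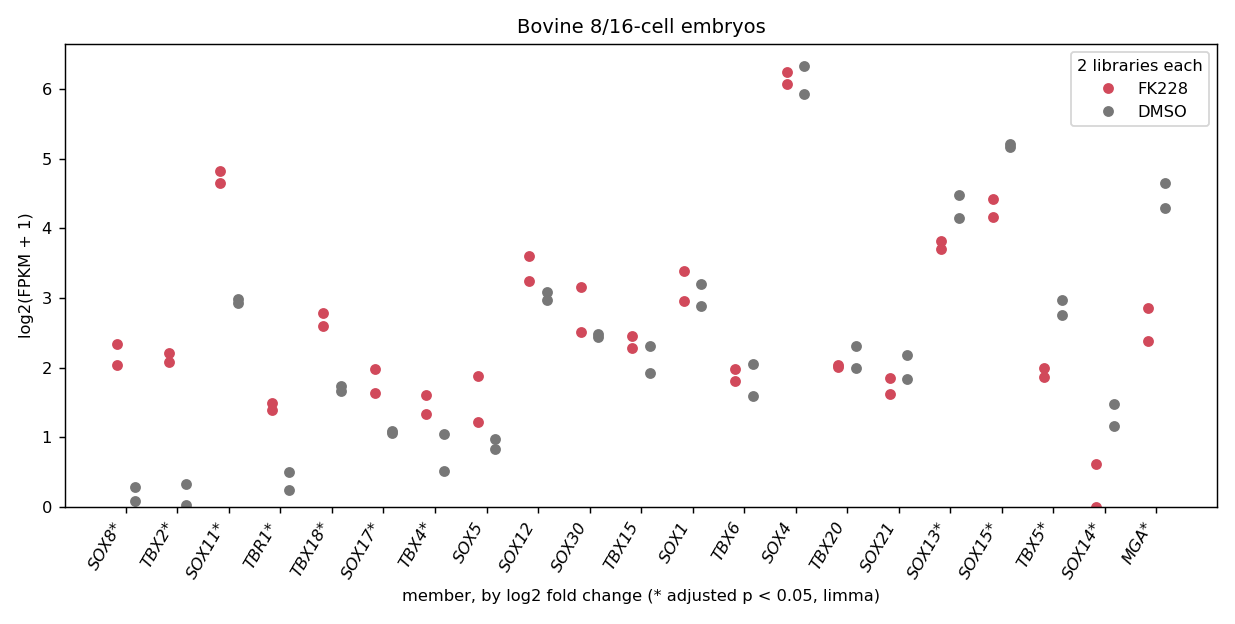
Level of the 21 tested members in bovine 8/16-cell embryos (log2(FPKM + 1)), FK228 libraries in red and DMSO libraries in grey, ordered by log2 fold change. Stars mark adjusted p under 0.05 in limma: 7 members at the left are higher under FK228 and 5 at the right lower, with MGA last.

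In cattle 22.2% of all genes were called higher and 27.4% lower, and the list counts are read against these. Of 15 tested mesoderm and endoderm genes, 5 rose and 4 fell, with LHX1 at 12.9 and 11.2 FPKM under FK228 and 1.13 and 0.79 FPKM under DMSO, and GATA6 at 6.65 and 4.11 FPKM and 52.0 and 43.8 FPKM. Of 17 tested neural and neural crest genes, 7 rose and 6 fell. With no filter 4 of 25 mesoderm and endoderm genes were called higher and 3 lower, and 5 of 21 neural genes higher and 4 lower, against 11% and 13.8% of all genes. PAX6 stood at 22.9 and 14.7 FPKM under FK228 and 4.53 and 6.31 FPKM under DMSO, and FOXD3 at 4.55 and 4.06 FPKM and 18.7 and 16.2 FPKM. Of 13 PRC1.6 partners 2 rose and 5 fell; CBX3 fell to 12.0 and 8.74 FPKM under FK228, against 49.0 and 43.2 FPKM under DMSO. Of 15 tested HMG-box genes 3 rose and 3 fell, and of 6 tested Groucho corepressors 2 rose and 2 fell.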

How the data were processed

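RNA of whole embryos was isolated with a PicoPure kit and polyA RNA was made into NEB Next Ultra libraries, per the labels' protocols. The authors deposited FPKM for each library. The tools in the submitters' processing notes are Cufflinks, DESeq2, featureCounts, HISAT2 and Trimmomatic, and the builds are ARS-UCD1.2 and GRCm38. DESeq2 was not run here, and tool versions and roles are not given in the sources used. Without counts, absolute depth is unknown, and only relative depth could be read from the steps between low values.

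Values were tested as log2(FPKM + 1) with limma 3.58.1 (R 4.3.3; eBayes with trend), keeping genes at 1 FPKM or more in at least 2 libraries. Fold changes on this scale understate the change of low genes. The 22 mouse libraries were fitted together, one coefficient for each group, which left 11 residual degrees of freedom; the 4 bovine libraries were fitted alone and left 2. In all, 8 group comparisons and 3 differences between effects were tested, two-sided, with Benjamini-Hochberg adjustment over all genes tested and a threshold of 0.05. Summaries and figures used Python 3.11.15, pandas 2.3.3 and matplotlib 3.10.9. The fit was tested on simulated data with normal noise of the same spread for every gene and no floor at 0. That test does not cover genes silent in controls. No column was left unmapped.

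Members and lists were chosen with earlier results of these data known. The rule for named members was to give values in every library where a member was called and reached a group mean of 3 FPKM; this was done for mutant Hdac1, mutant Hdac2 and FK228 in late mouse embryos, and in the other comparisons only for members described singly. Coordinates come from GENCODE M21 (33 of 33 members matched) and promoters from RefSeq on GRCm38.p6. Alternatives were a pseudocount of 0.1, no filter, a minimum of 5 FPKM, quantile normalization, median-ratio scaling, a fit of only the groups compared, a replicate block, and leaving out each library.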

Additional observations from a re-analysis of the deposited data

Results flagged for a closer look

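Differences between 2 effects that passed limma's test (adjusted p under 0.05) drew attention. The mutant Hdac1 effect at the late stage minus that at the early stage, on the log2 scale, was 4.13 for Sox8, 3.79 for Tbx2, 3.41 for Tbx1, 2.87 for Sox17, 2.61 for Sox1, 2.59 for Sox18, 2.58 for Sox4, 2.38 for Tbx20, 2.30 for Sox10, 2.255 for Tbx15 and 2.23 for Sox3. It was 1.82 for Tbx21, 1.44 for Sox9, 1.405 for T, 1.39 for Sox11, 1.32 for Sox14 and 1.29 for Tbx18, and it was negative for Mga (−1.70) and Sox13 (−2.46). Under quantile normalization 4 of these calls were lost in limma. The differences were then 0.62 for Sox9, 0.846 for Sox14, 0.687 for Sox11 and 0.904 for T (adjusted p = 0.204, 0.0722, 0.0990 and 0.113). The Sox11 call was also lost with a pseudocount of 0.1 (adjusted p = 0.0732). The T difference was lost without the first mutant or the first WT early library (adjusted p = 0.0539 and 0.0538).

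The mutant Hdac1 effect minus the FK228 effect was 2.65 for Tbx1, 2.49 for Sox15, 1.715 for Tbx20, 1.67 for Sox1 and 1.503 for Tbx2, and it was −2.16 for Sox7, −1.32 for Sox9 and −1.25 for Sox14. Injected and DMSO controls differ in handling as well, and the part of that in these differences was not tested.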

How the results depend on the processing

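Of 126 member calls in all comparisons, 89 were kept under every alternative that could be run and 0 reversed. Counts of calls stayed within 1.5 times except as follows. A minimum of 5 FPKM left 6 calls in cattle instead of 12. At the early stage the count of 1 was 2 with a pseudocount of 0.1, 0 with no filter, 0 with only the groups compared and 0 to 0 with each library left out. With a pseudocount of 0.1 the early calls were Sox9 and Sox15, and Sox17 was lost (limma adjusted p = 0.185). Kdm5b against water gave 1 call with no filter and 1 with quantile normalization. WT Hdac1 against water gave 0 with no filter, quantile normalization, median-ratio scaling or only the groups compared, and 0 to 2 with a library left out. Mutant Hdac1 minus FK228 gave 5 with a pseudocount of 0.1 and 0 with only the groups compared. With each library left out, the late counts ranged from 21 to 24 (Hdac1), 22 to 24 (Hdac2), 23 to 24 (FK228) and 8 to 10 (cattle). The lone library left in a group was then assumed to vary like the other groups. The replicate block kept all 126 calls (24, 25 and 26 in the late comparisons). Replicate numbers are not said to pair libraries, and the correlation of replicate differences was −0.008 to 0.233. Quantile normalization moved the median of all genes by −0.23, −0.19 and −0.19 in the 3 late comparisons; relative to it 19, 19 and 19 members rose and 3, 3 and 4 fell. Under it 48.0% of all calls were higher after mutant Hdac1 (58.5% here) and 52.9% for mutant Hdac1 minus FK228 (68.4% here). For WT Hdac1 against water that share was 34.0% (16.1% here), and for Kdm5b it was 23.8% under median-ratio scaling (39.8% here). FPKM near 0 limit what can be said of members silent in controls.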
